A study of Arabidopsis thaliana with 4 samples.

Results

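The 10 genes described here encode proteins that build and shape the growing wall of root hairs or steer their tip growth, and they were taken by locus identifier from the 33602 loci counted in each library. They are PRP1 (AT1G54970), PRP3 (AT3G62680), LRX1 (AT1G12040), LRX2 (AT1G62440), RHS13 (AT4G02270), RHS12 (AT3G10710), RHS18 (AT5G22410), RHS19 (AT5G67400), RHS10 (AT1G70460) and COW1 (AT4G34580). RNA came from root tips of Arabidopsis thaliana seedlings 4 days after germination. The plants were the wild type Col-0 or med16-2, which carries a mutation in the gene of Mediator subunit MED16. Medium with 1 mM phosphate is called high phosphate and medium with 5 µM low phosphate, and in all 4 groups it was agar with sucrose. Mediator is the complex that links transcription factors to RNA polymerase II. Each group has 1 library, so no difference has a replicate check and no test was possible. Every interval below covers counting error alone, and every comparison is between libraries.

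A root hair is a tubular outgrowth of a single epidermal cell that grows only at its tip, where new membrane and wall are delivered while the wall behind the tip is set. Proline-rich proteins and extensins form a protein network in that wall, and pectin-modifying enzymes and peroxidases are held to loosen or cross-link it. A receptor-like kinase and a phospholipid transfer protein are among the factors that limit or focus the growth. Hair genes of this kind are transcribed late in hair cell differentiation, downstream of the basic helix-loop-helix factors RHD6 and RSL4.

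All 10 genes were highest in the Col-0 high phosphate library and lowest in the med16-2 high phosphate library. Low phosphate went with lower levels in Col-0 and with higher levels in med16-2, so the gap between the genotypes was 2.16-fold for the summed counts at high phosphate and 1.11-fold at low phosphate. At high phosphate 7 of the 10 were at least 2-fold lower in med16-2, against 6.34% of all loci compared, and at low phosphate none was, against 6.14%. The same highest and lowest library was found in 1608 of the 18692 loci compared (8.60%).

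The stretch of DNA just before each gene is shown first because these genes moved together and because hair genes often carry a short regulatory word there, the root hair element. RHS genes, of which PRP1 is another, were originally collected with the help of that word, so finding it before an RHS gene is not an independent observation. In the 250 bases before the annotated start, read from the RefSeq TAIR10.1 assembly on both strands, the word occurred in 5 of the 10 genes and in 207 of 27443 promoters of the same length (0.754%). The 5 matches, each written 5′ to 3′ on the strand where it was found, are these.
PRP1: ATAGTGTTATGCACGAT
PRP3: TAAGTGTAATGCACGAT
LRX1: AACTTGGACGCACGTT
RHS13: ATAATGCGACTCACGTC
RHS18: TCCATGAACGCACGTT
The match of PRP1 spans bases 129 to 113 before the start, that of PRP3 bases 167 to 151 and that of LRX1 bases 93 to 78, all on the strand opposite to the gene. Those of RHS13, at bases 210 to 194, and RHS18, at bases 92 to 77, lie on the strand of the gene.

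The windows of PRP1 (chr1:20504651-20504900, plus strand), PRP3 (chr3:23182472-23182721, plus strand) and RHS18 (chr5:7426060-7426309, plus strand) are printed in the direction of transcription, with the root hair element in capitals. PRP1 and PRP3 are the related pair of proline-rich protein genes, and RHS18 is the wall enzyme with a match.
PRP1 upstream: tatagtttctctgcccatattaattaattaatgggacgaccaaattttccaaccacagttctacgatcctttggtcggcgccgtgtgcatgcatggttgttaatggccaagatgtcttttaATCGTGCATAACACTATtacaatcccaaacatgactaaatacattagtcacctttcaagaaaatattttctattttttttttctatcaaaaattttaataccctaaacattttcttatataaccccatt
PRP3 upstream: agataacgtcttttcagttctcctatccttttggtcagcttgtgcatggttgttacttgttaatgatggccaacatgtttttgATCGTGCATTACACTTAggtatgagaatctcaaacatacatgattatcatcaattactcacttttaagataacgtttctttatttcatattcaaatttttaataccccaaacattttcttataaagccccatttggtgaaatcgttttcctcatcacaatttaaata
RHS18 upstream: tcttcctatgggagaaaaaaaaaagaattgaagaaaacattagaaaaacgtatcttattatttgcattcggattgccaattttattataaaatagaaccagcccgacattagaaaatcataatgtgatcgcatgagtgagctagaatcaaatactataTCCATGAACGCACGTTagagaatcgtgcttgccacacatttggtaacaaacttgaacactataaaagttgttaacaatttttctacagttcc
LRX2, RHS12, RHS19, RHS10 and COW1 had no match in this window. The annotated start of LRX2 is marked as partial, so its window may not lie before the true start of transcription. Genotype log2 ratios at high phosphate ran from -1.23 to -0.75 in the genes with a match and from -1.32 to -0.66 in those without, so the ranges overlapped. The word also occurred before 4 of 11 other root hair specific genes, 3 of 16 other hair wall genes, 1 of 17 polarity and signalling genes, 0 of 9 hair transcription factor genes and 0 of 12 relatives from the same protein families. P1BS, the word GNATATNC to which phosphate starvation factors of the PHR1 type bind, occurred in 0 of the 10 windows and in 5.46% of all promoters. A match is a description of letters, not evidence of binding.

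The libraries held 10079345 gene counts for Col-0 high phosphate, 15696333 for Col-0 low phosphate, 14266585 for med16-2 high phosphate and 12302510 for med16-2 low phosphate. Counts of MED16, the mutated gene, were 420, 747, 56 and 48 in that order, 10.9-fold lower in med16-2 at high phosphate. The med16-2 low phosphate library stood apart in that 36.6% of its reads aligned to several places, against 6.65% to 9.27% in the others, and 2.42% of its gene counts were ribosomal or organelle loci, against 0.333% to 1.36%. Such reads are not in the gene counts, and of all 50-base words in the exons of the 10 genes between 98.5% (RHS10) and 100% occur once in the genome. Their part in the results was not tested. Only RHS19 overlaps another locus, by 4 bases with AT5G67410 on the opposite strand.

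**Figure D1:**
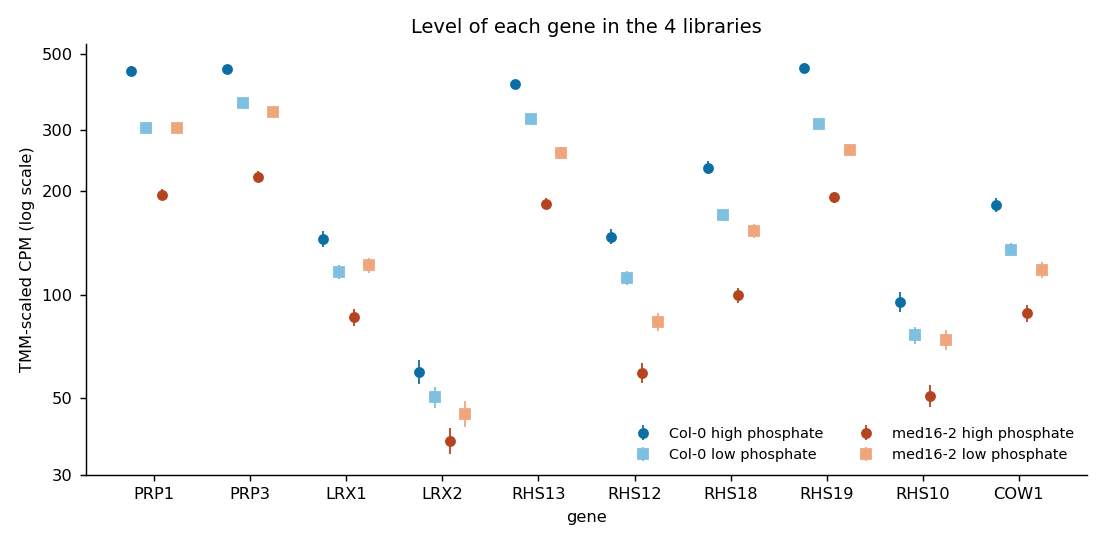
Level of each of the 10 genes in TMM-scaled CPM (log axis), 1 point per library, with bars for the exact 95% Poisson interval of the count. Every gene is highest in Col-0 at high phosphate and lowest in med16-2 at high phosphate, and the low phosphate libraries lie between.

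Levels are given as CPM, the counts of a locus per 1000000 gene counts of its library, after TMM scaling, a correction for library composition, and per kilobase of exon where genes are compared with each other. Per kilobase, RHS13 was the most abundant, with 500.6 CPM per kb in Col-0 high phosphate, 396 in Col-0 low phosphate, 226 in med16-2 high phosphate and 318 in med16-2 low phosphate. PRP3, RHS19 and PRP1 followed with means of 280, 236 and 227 CPM per kb over the 4 libraries, then RHS18 with 129 and COW1 with 64.4. RHS12 (49.3), LRX1 (43.6), RHS10 (25.4) and LRX2 (20.4) were the least abundant. This order was the same in both Col-0 libraries. RHS12 and LRX1 changed places in both med16-2 libraries, as did RHS19 and PRP1 in med16-2 low phosphate. Of the neighbours in the order, the counting intervals overlapped for PRP3 and RHS19 in Col-0 high phosphate, for RHS19 and PRP1 and for RHS10 and LRX2 in med16-2 high phosphate, and for LRX1 and RHS12 in both med16-2 libraries.

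Together the 10 genes took 0.256% of gene counts (exact 95% interval 0.253 to 0.259) in Col-0 high phosphate and 0.199% (0.197 to 0.201) in Col-0 low phosphate. In med16-2 they took 0.122% (0.120 to 0.124) at high phosphate and 0.175% (0.173 to 0.178) at low phosphate. The summed level was thus 1.34-fold lower at low phosphate in Col-0 (1.32 to 1.36) and 1.45-fold higher at low phosphate in med16-2 (1.42 to 1.48). In bulk RNA, fewer hair cells and less RNA per hair cell cannot be told apart.

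The wall proteins come first. PRP1 and PRP3 encode proline-rich structural proteins of the hair wall. PRP1 counted 4391 reads in Col-0 high phosphate, 4842 in Col-0 low phosphate, 2807 in med16-2 high phosphate and 3740 in med16-2 low phosphate, or 446, 303, 195 and 305 CPM. Its low phosphate libraries did not differ beyond counting error, at a genotype log2 ratio of 0.01 (-0.05 to 0.07), and both stood between the high phosphate libraries. PRP1 had the widest phosphate ratios of the 10 in both genotypes, 1.47-fold lower in Col-0 (1.41 to 1.53) and 1.56-fold higher in med16-2 (1.49 to 1.64). Next in size were RHS19 in Col-0 and RHS18 and PRP3 in med16-2, with counting intervals that overlapped those of PRP1. PRP3 had 450.1, 359, 219.7 and 338 CPM in the same order of libraries, and was 2.05-fold lower in med16-2 at high phosphate (1.96 to 2.15). At low phosphate PRP3 was 1.06-fold lower (1.02 to 1.11).

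LRX1 and LRX2 encode chimeric proteins with a leucine-rich repeat domain and an extensin domain, which anchor wall to membrane and act together in hair shape. LRX1 had 1426, 1860, 1236 and 1491 counts, or 145, 117, 85.9 and 122 CPM, in Col-0 high, Col-0 low, med16-2 high and med16-2 low phosphate. LRX2 had 588, 803, 542 and 553 counts, or 59.7, 50.3, 37.6 and 45.1 CPM. This pair had the smallest genotype ratios at high phosphate, 1.69-fold lower in med16-2 for LRX1 (1.56 to 1.82) and 1.59-fold lower for LRX2 (1.41 to 1.79), and neither reached 2-fold. LRX2 also had the smallest phosphate ratios in both genotypes, at log2 -0.25 in Col-0 and 0.26 in med16-2. Counting intervals overlapped between LRX1 and RHS10 in the genotype ratio at high phosphate, and between LRX2 and LRX1 in both phosphate ratios.

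RHS13 encodes a small proline-rich protein of the pollen Ole e 1 and extensin family. It had 4009, 5140, 2642 and 3166 counts, or 407, 322, 184 and 258 CPM. RHS13 was 2.22-fold lower in med16-2 at high phosphate (2.11 to 2.33) and still 1.25-fold lower at low phosphate (1.19 to 1.30). Both Col-0 libraries were above both med16-2 libraries, as in 8 of the 10 genes, all but PRP1 and LRX1. Among those, LRX2 and RHS10 did not differ between genotypes beyond counting error at low phosphate. The share of all loci with this order of libraries was not counted.

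The 3 wall enzymes had the lowest genotype ratios of the 10 at high phosphate. Their counting intervals overlapped those of the wall protein genes PRP1, at log2 -1.19 (-1.26 to -1.12), and RHS13, at -1.15 (-1.22 to -1.08). RHS12, a pectin methylesterase family gene, had 1451, 1783, 852 and 1021 counts, or 147, 112, 59.2 and 83.2 CPM. It was 2.49-fold lower in med16-2 at high phosphate (2.29 to 2.71) and 1.34-fold lower at low phosphate (1.24 to 1.45). RHS12 thus had the largest genotype ratio of the 10 at each phosphate level, though at low phosphate its interval overlapped that of RHS13. RHS18, a class III peroxidase gene, had 2301, 2718, 1431 and 1877 counts, or 234, 170.3, 99.4 and 153 CPM. RHS19, a peroxidase gene too, had 4477, 5001, 2760 and 3230 counts, or 454, 313, 192 and 263 CPM. At high phosphate RHS18 was 2.35-fold lower in med16-2 (2.20 to 2.51) and RHS19 2.37-fold lower (2.26 to 2.49). At low phosphate they were 1.11-fold (1.05 to 1.18) and 1.19-fold lower (1.14 to 1.24). All 3 enzymes were among the 8 genes with both Col-0 libraries above both med16-2 libraries, a count with no share of all loci beside it.

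Growth control is represented by RHS10 and COW1. RHS10 encodes a receptor kinase with a proline-rich extensin-like outer domain that limits hair length. It had 938, 1215, 731 and 906 counts, or 95.2, 76.1, 50.8 and 73.9 CPM, and was 1.88-fold lower in med16-2 at high phosphate (1.70 to 2.07). Its log2 ratio at low phosphate was -0.04 (-0.17 to 0.08). COW1 encodes a phosphatidylinositol transfer protein of the SEC14 type that holds hair growth to a single tip. It had 1794, 2152, 1270 and 1447 counts, or 182, 135, 88.2 and 118 CPM, and was 2.06-fold lower in med16-2 at high phosphate (1.92 to 2.22) and 1.14-fold lower at low phosphate (1.07 to 1.22). The gene that limits hair length was thus lower in the same library as the wall genes.

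**Figure D2:**
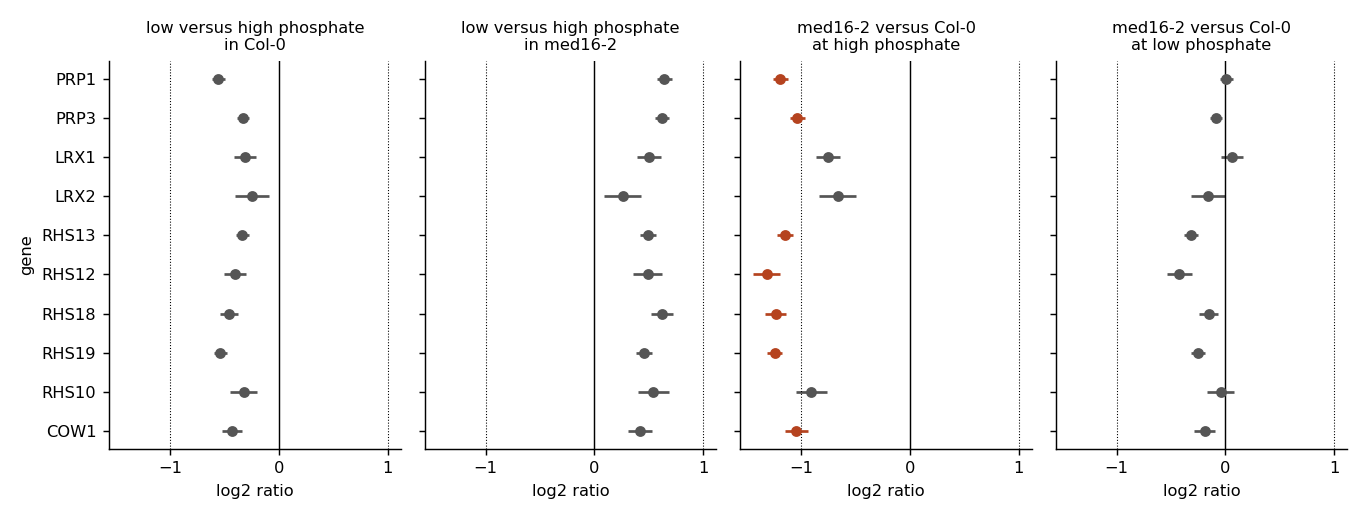
Log2 ratio of each gene in the 4 comparisons, with exact 95% counting intervals. Dotted lines mark 2-fold, and red points are genes at least 2-fold apart with an interval excluding equality, which are 7 genes of the third panel.

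Seen by comparison, a gene was called when its ratio was at least 2-fold and its interval excluded equality. Low phosphate in Col-0 gave 0 calls among the 10 genes, against 4.73% of all loci in either direction. All 10 log2 ratios were below 0 with intervals below 0, and 53.1% of all loci had ratios below 0. The share of all loci with intervals below 0 was not counted, and counting intervals are narrow at counts as high as these. The 10 ratios had a median of -0.37 beside -0.02 over all loci, and they ran from -0.56 for PRP1 to -0.25 for LRX2. PRP1 and RHS19 were below, and PRP3, LRX1, LRX2 and RHS13 above, the ratio of the summed counts of the other 9 genes. Low phosphate in med16-2 also gave 0 calls, against 3.29% of all loci in either direction. All 10 log2 ratios were above 0 with intervals above 0, while 51.8% of all loci had ratios below 0. Their median was 0.50 beside -0.01 over all loci. Here too the share of all loci with intervals above 0 was not counted.

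Between genotypes at high phosphate, 7 of the 10 genes were called lower and none higher, against 6.34% of all loci lower. Their median log2 ratio was -1.10 beside 0.02 over all loci. PRP3 (log2 -1.04) and COW1 (-1.05) lay just past 2-fold, and RHS10 (-0.91) just short of it. When libraries were scaled by total counts, PRP3 came to -0.99 and COW1 to -0.999, just short of 2-fold, which left 5 called. Of the loci as abundant as LRX2, the least abundant of the 10, 2.92% of 4897 were called lower, a background chosen after the data were seen.

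Between genotypes at low phosphate 0 of the 10 genes were called, against 6.14% of all loci lower. Log2 ratios ran from -0.42 for RHS12 to 0.06 for LRX1, with a median of -0.16 beside 0.01 over all loci. The interval was below 0 for PRP3, RHS13, RHS12, RHS18, RHS19 and COW1, and reached or included 0 for PRP1, LRX1, LRX2 and RHS10. Over all loci 48.8% of ratios were below 0. The share with intervals below 0 was not counted, so these intervals have no background beside them.

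The phosphate ratio of med16-2 minus that of Col-0, on the log2 scale, was above 0 for all 10 genes, with every normal 95% interval above 0. Over all loci 47.7% of these differences were below 0, and the share with intervals above 0 was not counted. The difference passed 2-fold in 2 of the 10 genes, PRP1 (1.20, 1.11 to 1.29) and RHS18 (1.08, 0.95 to 1.21), against 2.3% of all loci higher. RHS19, at 0.99, and PRP3, at 0.95, lay just short of it. The median was 0.88 beside 0.02 over all loci, and LRX2 had the smallest value, 0.51 (0.28 to 0.74). The 4 libraries enter several of these comparisons, so low values in med16-2 high phosphate appear in the genotype ratio, in the med16-2 phosphate ratio and in this difference.

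**Figure D3:**
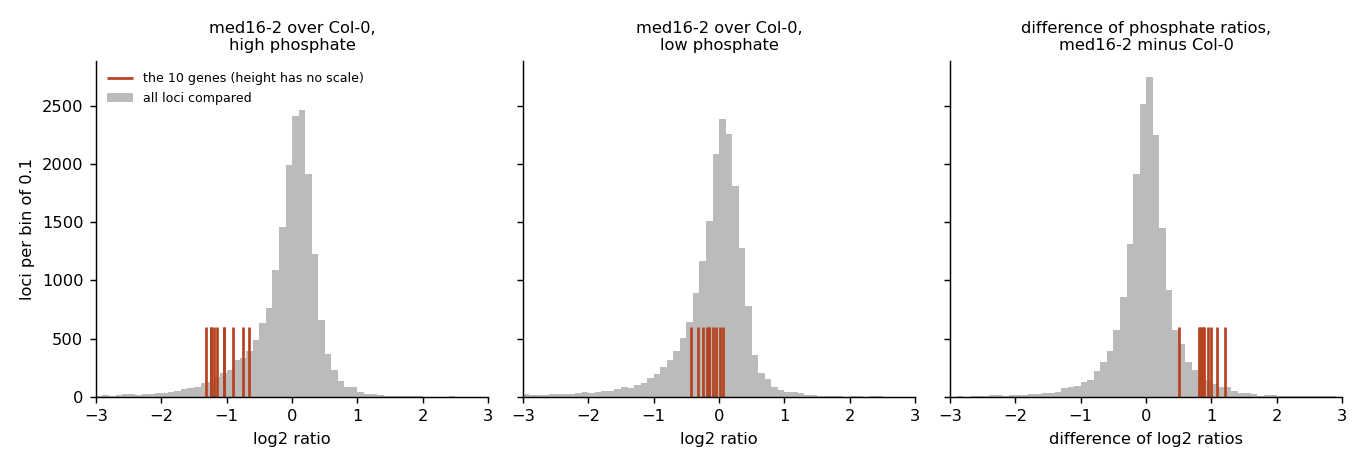
Log2 ratios of all 18692 loci compared (grey, loci per bin of 0.1, range cut at -3 and 3) with the 10 genes as red lines, for both genotype comparisons and for the difference of phosphate ratios. The 10 genes lie from -1.32 to -0.66 at high phosphate, from -0.42 to 0.06 at low phosphate and from 0.51 to 1.20 in the difference.

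Shares within the set moved little. PRP1 made up 17.0% of the counts of the 10 genes in Col-0 high phosphate, 15.5% in Col-0 low phosphate, 16.1% in med16-2 high phosphate and 17.3% in med16-2 low phosphate. LRX1 took 5.53% and 5.95% in Col-0 and 7.09% and 6.91% in med16-2, the high phosphate value first. RHS12 took 5.62% and 5.71% in Col-0 and 4.89% and 4.73% in med16-2. The wall protein gene LRX1 thus had the larger share in both mutant libraries, and the pectin enzyme gene RHS12 the smaller.

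The other root hair genes were read in 4 lists, 53 genes of which 52 were measured. At high phosphate 17 of the 52 were called lower in the mutant, none was called higher, and the median log2 ratio was -0.74. Over all loci 6.34% were called lower there, which is also the share to set beside each list count that follows. At low phosphate 1 was called higher, against 1.04% of all loci, none was called lower, against 6.14%, and the median was -0.01. Neither count has a test.

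Among 16 other wall genes, 9 were called lower at high phosphate and all 16 log2 ratios were below 0, with a median of -1.04. The lowest were the peroxidase family gene AT4G26010 at -1.76 and the xyloglucan endotransglucosylase genes XTH26 at -1.75, XTH12 at -1.52 and XTH13 at -1.26. These enzymes cut and rejoin xyloglucan chains between cellulose fibres. AT4G26010 had 624, 422, 184 and 249 CPM in Col-0 high, Col-0 low, med16-2 high and med16-2 low phosphate. Its level in med16-2 stayed below both Col-0 libraries at either phosphate level. The expansin gene EXPA18 was at -1.05, and MRH6, XTH14, PRPL1 and the pectin methylesterase family gene AT5G04960 were at -1.25, -1.11, -1.04 and -1.09.

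Of 11 other root hair specific genes, 4 were called lower at high phosphate and all 11 were below 0, with a median of -0.97. They were AT1G12950 at -1.02, the glycerol-3-phosphate permease gene G3Pp2 at -1.28, RHS16 at -1.18 and RHS6 at -1.15. RHS6 had 93 counts in Col-0 high phosphate, 68 in Col-0 low phosphate, 61 in med16-2 high phosphate and 107 in med16-2 low phosphate. It was the gene of these lists called at low phosphate too, 1.03 higher in med16-2 on the log2 scale, with a difference of phosphate ratios of 2.18 (1.54 to 2.82). RHS6 was also the only gene of the hair lists called for phosphate within a genotype, at log2 -1.145 in Col-0 and 1.037 in med16-2. Over all loci 4.73% and 3.29% were called there in either direction.

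Polarity and signalling genes, which mark the site of the hair and carry calcium, reactive oxygen and lipid signals, had 2 of 17 called lower at high phosphate and a median of -0.45. The 2 were PIP5K3, the gene of a phosphatidylinositol phosphate kinase at the hair tip, at -1.07, and the proton pump gene AHA7 at -1.08. Of 8 measured transcription factor genes, 2 were called lower. RSL4, the factor that sets hair length, had 80.5, 43.2, 39.6 and 52.7 CPM in Col-0 high, Col-0 low, med16-2 high and med16-2 low phosphate, a genotype log2 ratio of -1.02 (-1.18 to -0.87) at high phosphate. Its difference of phosphate ratios was 1.31 (1.09 to 1.53). The basic helix-loop-helix gene AT5G43175 was at -1.33, with 124, 144, 72 and 115 counts. RHD6, the earlier factor, had 38.0, 40.9, 32.9 and 51.2 CPM and a log2 ratio of -0.21, and was chosen for mention after its values were seen.

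Relatives of the 10 genes from the same protein families but without a hair role in the lists had 1 of 8 measured genes called lower at high phosphate and a median of -0.13. That gene was the leucine-rich repeat family gene AT3G22800, at -1.45, with 34.8, 22.2, 12.7 and 17.6 CPM. LRX3, a leucine-rich repeat extensin gene chosen for mention after its values were seen, was at -0.39. It had 71.2, 61.5, 54.2 and 49.0 CPM in Col-0 high, Col-0 low, med16-2 high and med16-2 low phosphate. PRP2 had 11 and 23 counts in the Col-0 libraries and 0 in both med16-2 libraries, under the level at which loci were compared. AT5G25550 had no counts in any library.

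**Figure D4:**
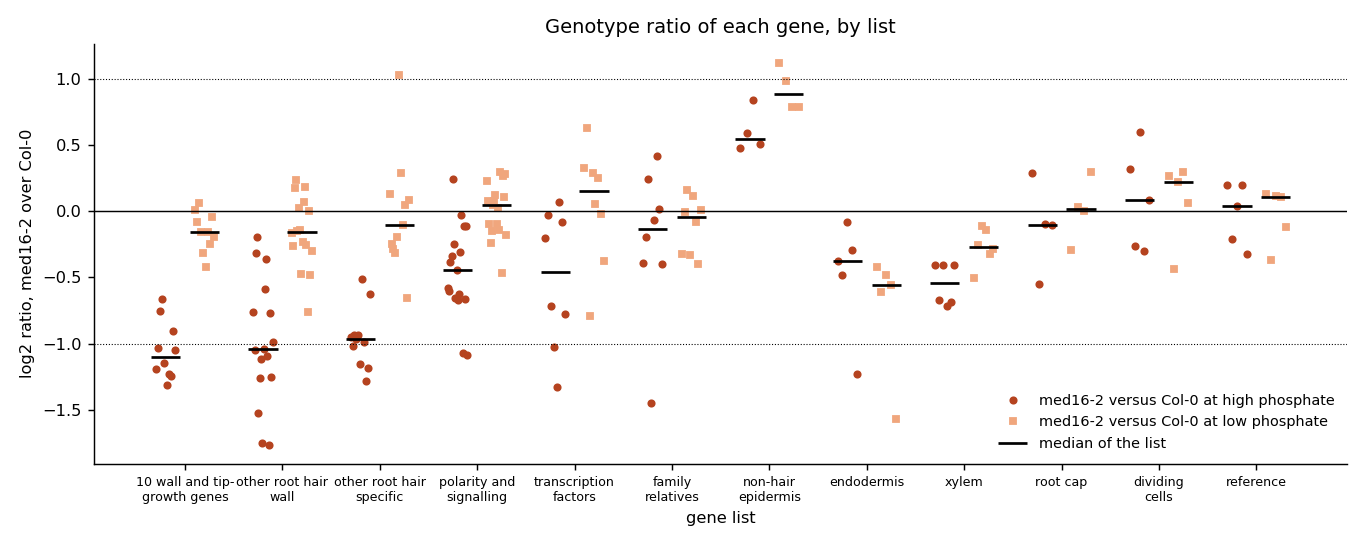
Log2 ratio of med16-2 over Col-0 for each measured gene, by list, at high phosphate (dark circles) and at low phosphate (light squares), with the list median as a black bar and 2-fold as dotted lines. The medians of the 10 genes are -1.10 and -0.16, and those of the non-hair epidermis markers are 0.55 and 0.89.

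Markers of other cell types were read beside these results. The 4 markers of non-hair epidermis, GL2, WER, MYB23 and TTG2, were detected in every library and summed to 75.5 CPM in Col-0 high, 45.9 in Col-0 low, 111 in med16-2 high and 90.8 in med16-2 low phosphate. All 4 were above 0 in both genotype comparisons, with medians of 0.55 and 0.89. GL2 was called higher at low phosphate, at 1.12 (0.88 to 1.37), and none of the 4 was called at high phosphate. The genotype log2 ratio was larger at low than at high phosphate for GL2, WER and TTG2, and was 0.84 at high and 0.79 at low phosphate for MYB23. Endodermis markers summed to 448 and 487 CPM in Col-0 and 345 and 335 CPM in med16-2, with 5 of 5 below 0 at each phosphate level. Of these CASP5 was called lower at both levels, at -1.23 at high and -1.57 at low phosphate. Xylem markers summed to 403 and 409 CPM in Col-0 and 271 and 341 CPM in med16-2, with 6 of 6 below 0 at each phosphate level. The sum of the root cap markers ranged from 87.8 to 102 CPM over the 4 libraries, and that of the dividing cell markers from 121 to 137 CPM. Single markers within these lists moved in either direction. Markers of green shoot tissue summed to 135 and 120 CPM in Col-0 and 7.43 and 13.5 CPM in med16-2, with LHCB1.1 at 0 in every library and RBCS1A at 0 in med16-2 high phosphate. Reads aligned to several places are not in these counts, and their part in the 0 of LHCB1.1 was not tested. The 4 measured shoot markers were all called lower in med16-2 at both phosphate levels. Over all loci 6.34% were called lower at high and 6.14% at low phosphate. The part of any of these in the ratios of the hair genes was not tested.

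The pattern of the 10 genes over the 4 libraries was set beside that of every locus with a mean of at least 5 CPM, as the Euclidean distance between log2 levels centred on each locus's own mean. The 6 nearest other genes were AT5G43230, XTH14, AT5G04960, PRPL1, AT1G75160 and AT1G32690, at distances of 0.06 to 0.09. Of these XTH14, AT5G04960 and PRPL1 are in the list of other hair wall genes. XTH14 had 415, 321, 192 and 291 CPM and AT5G43230 had 28.3, 21.9, 13.1 and 19.7 CPM in Col-0 high, Col-0 low, med16-2 high and med16-2 low phosphate. Within the set LRX2 was farthest from the median pattern, at 0.33, and 249 other loci (1.63%) were at least as near as LRX2. They held 9 of 16 other hair wall genes, 7 of 11 other root hair specific genes, 3 of 17 polarity genes, 2 of 7 hair transcription factor genes, 1 of 8 family relatives and 1 of 5 xylem markers. No marker of non-hair epidermis, root cap, dividing cells or endodermis and no reference gene was among them. These distances rest on 4 libraries and describe them only.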

How the data were processed

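The authors deposited 1 file of raw counts per library, whole reads per locus for 33602 loci. Reads had been trimmed, aligned and counted against TAIR10, and the submitters' processing notes name HTSeq 0.6.0, TopHat2 2.0.9 and Trimmomatic 0.35 without settings. Per the labels, 5 µg of total RNA went into each library, and strand was not kept. Lines naming no gene (12.5%, 9.89%, 10.1% and 42.1% of reads listed) were left out.

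Counts were scaled by TMM (edgeR 4.0.16, R 4.3.3), and loci averaging 1 CPM or more (18692) were compared. Log2 ratios used a pseudocount of 0.5. Intervals of ratios were exact (Clopper-Pearson, 95%) and that of the difference of ratios was normal; they cover counting error alone. A call needed 2-fold and an interval excluding equality, with no p-value. Sequences, exon lengths and names came from RefSeq TAIR10.1, and all 10 genes were matched by locus.

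The 10 genes, the lists and the alternatives were chosen with earlier results of these data known. All 10 are named, with genes of other hair or family lists that were called in any comparison, the 6 genes nearest in pattern, and RHD6 and LRX3 as stated. Alternatives were total counts, DESeq2 1.42.0 size factors, TMM without ribosomal RNA and organelle loci, other filters, a pseudocount of 5 and 1.5-fold. A background of abundant loci was added after the data were seen.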

Additional observations from a re-analysis of the deposited data

Results flagged for a closer look

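The phosphate log2 ratio differed in size and sign between med16-2 and Col-0 for all 10 genes, as a comparison of libraries. With 1 library per group the difference was not tested. The values, med16-2 minus Col-0, were 1.20 for PRP1, 0.95 for PRP3, 0.81 for LRX1, 0.51 for LRX2, 0.83 for RHS13, 0.89 for RHS12, 1.08 for RHS18, 0.99 for RHS19, 0.86 for RHS10 and 0.85 for COW1.

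A phosphate ratio below 0 in Col-0 and above 0 in med16-2 was also found, untested, in 46 of 52 measured genes of the other hair lists and 3 of 8 family relatives, and the opposite in none of either. Over all loci compared, 53.1% of ratios were below 0 in Col-0 and 51.8% below 0 in med16-2. The share of all loci with the pattern was not counted, so these counts have no background beside them. The values follow for the 18 hair genes and 1 relative with the pattern that were called in any comparison. Some uncalled genes had values as large. Among wall genes it was 1.37 for XTH12, 1.28 for XTH13, 0.97 for XTH14, 1.28 for XTH26, 0.78 for EXPA18, 0.77 for MRH6, 0.84 for AT5G04960, 1.00 for AT4G26010 and 0.81 for PRPL1. Among other root hair specific genes it was 2.18 for RHS6, 1.32 for G3Pp2, 1.08 for AT1G05990, 0.77 for AT1G12950 and 0.53 for RHS16. RSL4 had 1.31, AT5G43175 1.38, PIP5K3 0.61, AHA7 0.90 and AT3G22800 1.12.

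Outside the gene counts, 36.6% of the reads of the med16-2 low phosphate library aligned to several places, above the Col-0 libraries. Their part in the ratios of the 10 genes was not tested.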

How the results depend on the processing

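No paired analysis was possible because each group has 1 library, and for the same reason no library could be left out. The filters on low counts could not alter the ratio of any of the 10 genes. Of their 250 ratios under the other alternatives, 233 kept their direction and their side of 2-fold, 13 newly passed the lower fold, 2 fell short and 2 changed sign. Those short of 2-fold were PRP3 (-0.99) and COW1 (-0.999) between genotypes at high phosphate, with total counts. The sign changes were both of PRP1 between genotypes at low phosphate, at -0.021 with total counts and -0.0029 with DESeq2 size factors. With 1.5-fold, all 10 genes were lower in med16-2 at high phosphate, 3 of the 10 genes were higher at low phosphate in med16-2 and 9 passed in the difference of phosphate ratios. Without PRP3, which had the highest mean CPM of the 10 without regard to length, the other 9 had a summed share of 0.212% in Col-0 high, 0.163% in Col-0 low, 0.100% in med16-2 high and 0.142% in med16-2 low phosphate. With ribosomal RNA and organelle loci out of the total, the share was 0.202% in Col-0 low and 0.180% in med16-2 low phosphate.

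Over all loci 884 were called in either direction for phosphate in Col-0 and 615 for phosphate in med16-2, 1186 and 1147 were called lower between genotypes at high and low phosphate, and 429 higher in the difference. In the same order and directions, 2.55%, 1.65%, 4.65%, 3.79% and 1.34% of loci with at least 5 CPM were called, and with 1.5-fold 11.1%, 7.58%, 12.3%, 11.9% and 5.32% of all. Of loci as abundant as LRX2, 1.23%, 0.817%, 2.92%, 1.67% and 0.715% were called, an alternative chosen after seeing the data. All 10 genes have at least 542 counts in each library, so the want of replicates, not depth, sets what can be said.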
